A study of Mus musculus with 12 samples.

Results

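The genes described here encode the clustered core histones and the linker histones of the mouse. They are all gene symbols of the expression table that read H1f, H2ac, H2bc, H3c or H4c followed only by digits, and the rule found 68 of 32416 symbols. Among them were 10 linker histone genes (H1f), 17 genes of H2A (H2ac), 16 of H2B (H2bc), 12 of H3 (H3c) and 13 of H4 (H4c). Their levels were measured in bulk RNA from 12 tumours that B16 melanoma cells, a mouse melanoma line, formed under the skin of C57BL/6 mice. The tumour cells over-expressed Aoah, the gene of acyloxyacyl hydrolase, a lipase that removes acyl chains from bacterial lipopolysaccharide, or carried an empty Vector. Of the B16mhgp100 tumours, 4 were Aoah and 4 Vector, and all were treated from day 10 with anti-PD1, an antibody that blocks a checkpoint receptor of T cells. Of the B16F10 tumours, 2 were Aoah and 2 Vector, and all were treated from day 6 with anti-PD1 together with anti-CTLA4, which blocks another such receptor. A dose held 200 µg of each antibody, 4 doses were given at 2 per week, and the tumours were collected 1 day later. No group was left without antibody. The sources used here do not give the promoter that drives Aoah, the ages of the mice or the number of cell clones.

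Nucleosomes wrap DNA around an octamer of the core histones H2A, H2B, H3 and H4, and a linker histone H1 binds the DNA between them. Most core histone genes lie in clusters, are copied into mRNA mainly while DNA is replicated, and give messages that end in a conserved stem-loop, bound by the stem-loop binding protein Slbp, in place of a polyA tail. Replacement histones and a few linker histones, H1f0 among them, have polyadenylated messages that are made outside S phase, and H1f0 is known for accumulating in cells that have left the cell cycle or differentiated. The libraries were made from RNA captured with oligo(dT), which binds polyA tails. The levels below are therefore those of histone messages that entered a polyA library, and they do not measure the whole pool of histone mRNA. They are given in TPM, a unit of transcript abundance that is scaled for gene length and for the library total.

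Of the 68 histone genes, 64 were matched to GENCODE M21 transcripts on GRCm38.p6, and each transcript was searched on its own strand for the stem-loop core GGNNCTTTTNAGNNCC. The core was present in 40 of the 64 matched histone genes (62.5%) and in 89 of all 55450 annotated genes (0.161%). The most common form stood in 23 histone genes of the H1, H2A, H2B and H3 classes. A form with a changed stem stood in 6 H4 genes, and a form with a changed loop stood in 6 genes, H1f6, H2bc3, H2bc12, H3c3, H3c6 and H3c7. Sites of histone genes with high levels or large differences are printed to show what the annotated end of the message looks like, with 5 flanking bases on each side where the transcript holds them and the core in capitals.
H2ac24: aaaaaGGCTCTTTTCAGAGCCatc
H2ac19: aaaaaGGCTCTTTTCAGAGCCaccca
H2ac20: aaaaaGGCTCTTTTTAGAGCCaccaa
H1f2: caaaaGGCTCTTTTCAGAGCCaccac
H2bc8: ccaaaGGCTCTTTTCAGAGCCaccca
H3c3: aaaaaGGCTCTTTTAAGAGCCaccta
H4c9: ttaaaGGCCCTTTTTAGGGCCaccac
H4c8: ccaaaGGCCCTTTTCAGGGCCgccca
H4c2: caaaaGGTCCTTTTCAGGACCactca

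The annotated transcripts differed in what follows the stem-loop. In H2ac24 the transcript ended 3 bases after the core, in H4c2 28 bases after it, in H2ac19 35 bases after it, in H4c8 46 bases after it and in H2ac20 57 bases after it. In H2bc8 it went on for 155 bases, in H4c9 for 330 bases and in H1f2 for 840 bases. A transcript that goes on past the stem-loop has room for a later polyA site, and one that ends at it is the form without a tail. H1f0, H1f10, H2bc4 and H2bc21 had no match to the core in their annotated transcripts. Among the 21 histone genes with at most 100 bases after the core, 9 had a mean of at least 1 TPM over the 12 libraries, and the highest mean was 74.5 TPM, of H2ac24. Among the 19 with over 100 bases after it, 4 did, and the highest mean was 30.9 TPM, of H1f2. Among the 24 with no match, 8 did, and the highest mean was 497 TPM, of H1f0. Some of these 24 had short annotated transcripts, such as H4c12 at 312 bases, H2bc18 at 381 bases, H2ac22 at 393 bases and H3c10 at 411 bases. An annotated transcript that stops before the stem-loop cannot match, so no match does not show that the gene lacks it. Genes annotated to end within 100 bases of the stem-loop thus had levels assigned to them in these polyA libraries. Where their reads end was not examined. H1f9, H2ac25, H2bc27 and H4c16 were not matched to a transcript.

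The promoters also differ by class. RefSeq promoter windows of 300 bases (250 before the start and 50 after it, GRCm38.p6) were found for 59 histone genes and searched on both strands for CCAAT, the motif of the factor NF-Y, for TATAAA, that of the TATA-binding protein, and for ATTTGCAT, that of octamer factors. CCAAT was in all 16 H2A, 13 H2B and 10 H3 windows, in 7 of 9 H1 and 3 of 11 H4 windows, and in 37.4% of all promoters. TATAAA was in 11 of 16 H2A, 6 of 13 H2B, 4 of 10 H3, 8 of 11 H4 and 4 of 9 H1 windows, and in 13.6% of all promoters. ATTTGCAT was in 6 of 16 H2A windows, 6 of 13 H2B windows and no H1, H3 or H4 window, and in 1.74% of all promoters. The 120 bases before the start are printed for H1f0, the most abundant of these genes, and for H1f2 and H2bc8, which differed between the models, with the motifs in capitals.
H1f0 (chr15:79028092-79028211, + strand): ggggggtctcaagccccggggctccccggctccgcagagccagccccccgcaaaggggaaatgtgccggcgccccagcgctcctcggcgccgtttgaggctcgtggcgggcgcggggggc
H1f2 (chr13:23738687-23738806, + strand): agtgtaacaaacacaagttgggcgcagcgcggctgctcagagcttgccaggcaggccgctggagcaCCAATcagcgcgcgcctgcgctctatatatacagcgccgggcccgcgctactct
H2bc8 (chr13:23571280-23571399, + strand): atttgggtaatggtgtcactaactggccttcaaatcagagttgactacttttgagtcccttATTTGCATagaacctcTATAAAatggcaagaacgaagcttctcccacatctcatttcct
The H1f0 stretch holds none of the 3 motifs, the H1f2 stretch holds CCAAT, and the H2bc8 stretch holds the octamer motif 8 bases ahead of TATAAA.

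At least 1 TPM was reached by 13775 to 14791 genes in a library. Read depth per library is unknown, since TPM does not keep it. The library labelled B16mhgp100 Aoah 4 had 3.91 TPM of Aoah, within the 0.89 to 7.58 TPM of the B16mhgp100 Vector tumours, while the other Aoah tumours of that model had 13.96 to 22.46 TPM and those of B16F10 had 21.75 and 23.73 TPM, against 1.49 and 0.75 TPM in B16F10 Vector tumours. By Aoah level alone this library thus cannot be told from a Vector tumour, and whether its label is right was not tested. In Sox10, a melanocyte marker, this library was also low, at 93.56 TPM, against 518.84 to 788.91 TPM in the other B16mhgp100 tumours. Summed over 8 keratinocyte and 10 skeletal muscle markers, it had 6352 and 7369 TPM, against at most 58.11 and 986.2 TPM in each of the other 11 libraries, and its 8 melanocyte markers summed to 7946 TPM, against 16020 to 30410 TPM. Krt14, a keratin of the basal epidermis, was at 600.09 TPM there and at most 6.23 TPM elsewhere, with 3 libraries listed at 0. Results of histone genes that rest on this library are given with and without it.

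Histone genes made up a small part of each library, with a median of 0.0775% of all TPM. A mean of at least 1 TPM over the 12 libraries was reached by 22 of the 68, which were 3 H1, 7 H2A, 5 H2B, 2 H3 and 5 H4 genes, and a mean of at least 10 TPM by 7. In every library 11 had at least 1 TPM. In contrast, 43 were listed at 0 in at least 1 library and 7 were above 0 in at most 2 libraries. The linker gene H1f0 alone held 66.1% of the summed TPM of the 68 genes. H2ac24 followed with 9.89%, H1f2 with 4.10%, H2ac19 with 4.08% and H2bc4 with 3.77%.

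Among the linker histones, H1f0 (H1.0) had 592, 526, 653 and 227 TPM in B16mhgp100 Aoah tumours 1 to 4, against 595, 670, 611 and 637 TPM in B16mhgp100 Vector tumours 1 to 4. In B16F10 it had 275 and 276 TPM in Aoah tumours, against 503 and 404 TPM in Vector tumours. Its lowest values were thus in the library labelled B16mhgp100 Aoah 4 and in both B16F10 Aoah tumours, and the other 3 B16mhgp100 Aoah tumours overlapped the Vector tumours. H1f2, which encodes H1.2, a linker histone made mainly in S phase, had 19.4, 22.9, 10.6 and 33.7 TPM in B16mhgp100 Aoah tumours, against 24.7, 13.3, 21.8 and 18.2 TPM in Vector tumours. The B16F10 levels were 64.9 and 52.9 TPM in Aoah tumours, against 31.2 and 57.2 TPM in Vector tumours. The B16F10 tumours lay above the B16mhgp100 tumours in H1f2 except for B16F10 Vector 1, which lay below the library labelled B16mhgp100 Aoah 4. H1f10, which encodes the divergent linker histone H1.10, had 3.51, 2.98, 6.20 and 10.0 TPM in B16mhgp100 Aoah tumours, against 3.88, 4.70, 2.91 and 2.73 TPM in Vector tumours. In B16F10 it had 24.2 and 26.0 TPM in Aoah tumours, against 23.0 and 13.6 TPM in Vector tumours, so that the models did not overlap. H1f4 was low in every group, with 0.65, 0.33, 0.87 and 0.81 TPM in B16mhgp100 Aoah tumours, 0.57, 0.42, 0.41 and 0.48 TPM in B16mhgp100 Vector tumours, 0.69 and 0.59 TPM in B16F10 Aoah tumours and 0.75 and 0.60 TPM in B16F10 Vector tumours. The remaining 6 linker genes, H1f1, H1f3, H1f5, H1f6, H1f8 and H1f9, reached at most 0.83 TPM in a library.

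**Figure D1:**
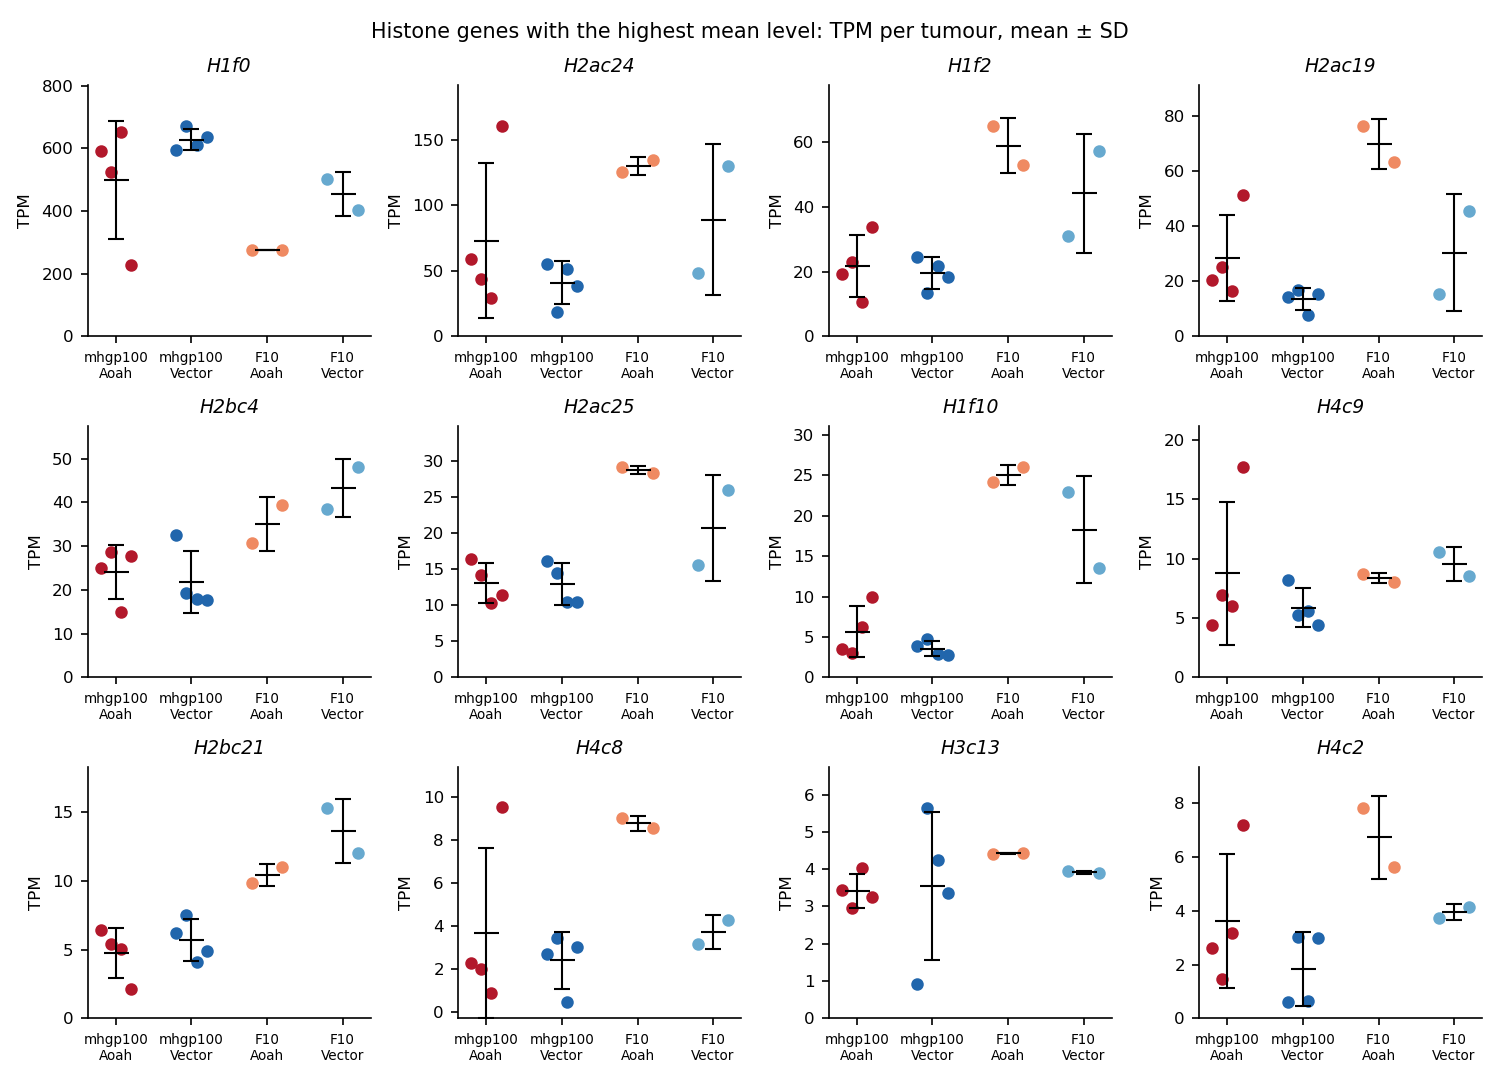
TPM (vertical axis, linear, its own scale per panel) of the 12 histone genes with the highest mean over all libraries, in each tumour (points) of the B16mhgp100 Aoah, B16mhgp100 Vector, B16F10 Aoah and B16F10 Vector groups, with the group mean and SD (bars, n = 4, 4, 2 and 2). H1f10 and H2bc21 lie higher in every B16F10 tumour than in every B16mhgp100 tumour, and in H2ac24, H4c9 and H4c8 the highest B16mhgp100 Aoah point (160, 17.7 and 9.51 TPM) is the library labelled Aoah 4.

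Genes of H2A, the core histone that pairs with H2B, were led by H2ac24 and H2ac19. H2ac24 had 59.0, 44.0, 29.3 and 160 TPM in B16mhgp100 Aoah tumours, against 55.1, 18.9, 51.1 and 38.3 TPM in Vector tumours. The B16F10 levels were 125 and 135 TPM in Aoah tumours, against 48.2 and 130 TPM in Vector tumours. H2ac24 was thus high in the library labelled B16mhgp100 Aoah 4 and in all B16F10 tumours but Vector 1. H2ac19 had 20.6, 25.3, 16.5 and 51.3 TPM in B16mhgp100 Aoah tumours, against 14.3, 16.8, 7.63 and 15.4 TPM in Vector tumours. In B16F10 it had 76.3 and 63.5 TPM in Aoah tumours, against 15.4 and 45.4 TPM in Vector tumours. The same 4 libraries were the high ones as for H2ac24. H2ac25 had 16.4, 14.2, 10.3 and 11.3 TPM in B16mhgp100 Aoah tumours, against 16.1, 14.5, 10.5 and 10.4 TPM in Vector tumours. The H2ac25 levels in B16F10 were 29.1 and 28.4 TPM in Aoah tumours, against 15.6 and 25.9 TPM in Vector tumours. Here the library labelled B16mhgp100 Aoah 4 lay among the other tumours of its model, unlike in H2ac24 and H2ac19. H2ac18 had 2.01, 1.06, 0.47 and 11.2 TPM in B16mhgp100 Aoah tumours, against 5.07, 1.35, 0 and 2.10 TPM in Vector tumours, and in B16F10 5.27 and 8.31 TPM in Aoah tumours, against 1.55 and 1.55 TPM in Vector tumours. Of the 100-base windows of the H2ac19 transcript 100% are also found in another annotated gene, and of those of H2ac24 92.2% and of H2ac18 88.3%. The authors' program shares reads between near-identical genes, so the split between such genes is uncertain. In 23 of the matched histone genes at least 50% of the windows were shared in this way, whereas in H1f0, H1f10 and H2bc21 none was.

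Of the H2B genes, H2bc4 had 25.1, 28.6, 15.0 and 27.8 TPM in B16mhgp100 Aoah tumours, against 32.4, 19.4, 17.9 and 17.6 TPM in Vector tumours. Its B16F10 levels were 30.8 and 39.5 TPM in Aoah tumours, against 38.5 and 48.0 TPM in Vector tumours. All B16F10 tumours but Aoah 1 lay above the B16mhgp100 tumours in H2bc4. H2bc21 had 6.41, 5.41, 5.02 and 2.13 TPM in B16mhgp100 Aoah tumours, against 6.22, 7.55, 4.09 and 4.89 TPM in Vector tumours. In B16F10 it had 9.87 and 11.0 TPM in Aoah tumours, against 15.3 and 12.01 TPM in Vector tumours, with no overlap between the models. H2bc8 also did not overlap between the models, with 2.36, 2.56, 2.53 and 1.5 TPM in B16mhgp100 Aoah tumours, 1.65, 3.01, 1.5 and 2.88 TPM in B16mhgp100 Vector tumours, 5.85 and 5.60 TPM in B16F10 Aoah tumours and 7.48 and 5.52 TPM in B16F10 Vector tumours. H2bc6 was lower, at 0.46, 0.59, 0.51 and 0.49 TPM in B16mhgp100 Aoah tumours, 0.89, 1.12, 0.52 and 0.32 TPM in B16mhgp100 Vector tumours, 1.2 and 1.37 TPM in B16F10 Aoah tumours and 1.41 and 2.45 TPM in B16F10 Vector tumours. In H2bc21 and H2bc8 the library labelled B16mhgp100 Aoah 4 was at or near the low end of its model, the reverse of its place in H2ac24. H2bc18 overlapped between the models, with 1.40, 1.83, 3.52 and 3.38 TPM in B16mhgp100 Aoah tumours, 1.55, 1.54, 2.01 and 0.44 TPM in B16mhgp100 Vector tumours, 1.69 and 1.15 TPM in B16F10 Aoah tumours and 1.18 and 2.04 TPM in B16F10 Vector tumours.

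Genes of H3, the core histone whose tail carries many of the marks read by chromatin factors, were low throughout. H3c13 had 3.44, 2.95, 4.03 and 3.26 TPM in B16mhgp100 Aoah tumours, against 0.91, 5.63, 4.26 and 3.36 TPM in Vector tumours, and 4.41 and 4.44 TPM in B16F10 Aoah tumours, against 3.94 and 3.89 TPM in Vector tumours. H3c3 had 1.79, 1.38, 1.82 and 3.67 TPM in B16mhgp100 Aoah tumours, against 1.77, 1.93, 1.77 and 1.5 TPM in Vector tumours, and 1.97 and 4.05 TPM in B16F10 Aoah tumours, against 3.22 and 3.57 TPM in Vector tumours. Both genes overlapped between the models. H3c15 had 0.28, 0, 0.64 and 2.52 TPM in B16mhgp100 Aoah tumours, against 1.12, 1.04, 0 and 1.0 TPM in Vector tumours, and 1.88 and 1.0 TPM in B16F10 Aoah tumours, against 0.53 and 0 TPM in Vector tumours. H3c1 had 0.41, 0.74, 0.68 and 0.30 TPM in B16mhgp100 Aoah tumours, against 0.39, 1.81, 0.40 and 0 TPM in Vector tumours, and 0.39 and 1.0 TPM in B16F10 Aoah tumours, against 1.62 and 0.80 TPM in Vector tumours. At such levels both were scattered within every group, and the other 8 H3 genes reached at most 1.96 TPM in a library.

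Of the genes of H4, the partner of H3 in the nucleosome, H4c9 had 4.42, 6.94, 6.01 and 17.7 TPM in B16mhgp100 Aoah tumours, against 8.24, 5.24, 5.61 and 4.42 TPM in Vector tumours. The B16F10 levels were 8.67 and 8.07 TPM in Aoah tumours, against 10.6 and 8.55 TPM in Vector tumours. The library labelled B16mhgp100 Aoah 4 had the highest H4c9 level of all 12. H4c8 had 2.29, 1.99, 0.89 and 9.51 TPM in B16mhgp100 Aoah tumours, against 2.68, 3.44, 0.44 and 3.01 TPM in Vector tumours, and 9.01 and 8.53 TPM in B16F10 Aoah tumours, against 3.17 and 4.29 TPM in Vector tumours. H4c2 had 2.62, 1.47, 3.17 and 7.21 TPM in B16mhgp100 Aoah tumours, against 0.62, 3.04, 0.63 and 2.99 TPM in Vector tumours, and 7.81 and 5.65 TPM in B16F10 Aoah tumours, against 3.75 and 4.16 TPM in Vector tumours. H4c8 and H4c2 shared 3 high libraries, both B16F10 Aoah tumours and the library labelled B16mhgp100 Aoah 4. H4c6 had 1.54, 1.60, 1.65 and 3.36 TPM in B16mhgp100 Aoah tumours, against 0, 1.17, 0 and 2.36 TPM in Vector tumours, and 2.39 and 1.01 TPM in B16F10 Aoah tumours, against 0 and 3.37 TPM in Vector tumours.

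Summed by class, the core histone genes formed a low and a high set of libraries, and H1f0 was lowest in the high set. The summed TPM of all H2A, H2B, H3 and H4 genes was 166, 163, 125 and 354 in B16mhgp100 Aoah tumours, against 164, 122, 124 and 122 in Vector tumours. In B16F10 it was 341 and 353 in Aoah tumours, against 199 and 320 in Vector tumours. Most of the spread came from H2A, whose sum ran from 59.3 to 249 TPM, whereas H2B ran from 28.2 to 73.8, H3 from 5.77 to 14.3 and H4 from 9.48 to 48.9 TPM. Without H2ac24 and H2ac19, the core sum was 86.2, 93.4, 79.0 and 143 TPM in B16mhgp100 Aoah tumours, against 94.9, 86.6, 65.3 and 68.3 TPM in Vector tumours, and 139 and 155 TPM in B16F10 Aoah tumours, against 136 and 144 TPM in Vector tumours. With those 2 genes left out, B16F10 Vector 1 stood beside the other B16F10 tumours. Linker genes other than H1f0 summed to 18.8 to 45.8 TPM in B16mhgp100 Aoah tumours, 19.1 to 30.9 TPM in B16mhgp100 Vector tumours, 80.3 and 90.1 TPM in B16F10 Aoah tumours and 56.6 and 72.4 TPM in B16F10 Vector tumours.

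**Figure D2:**
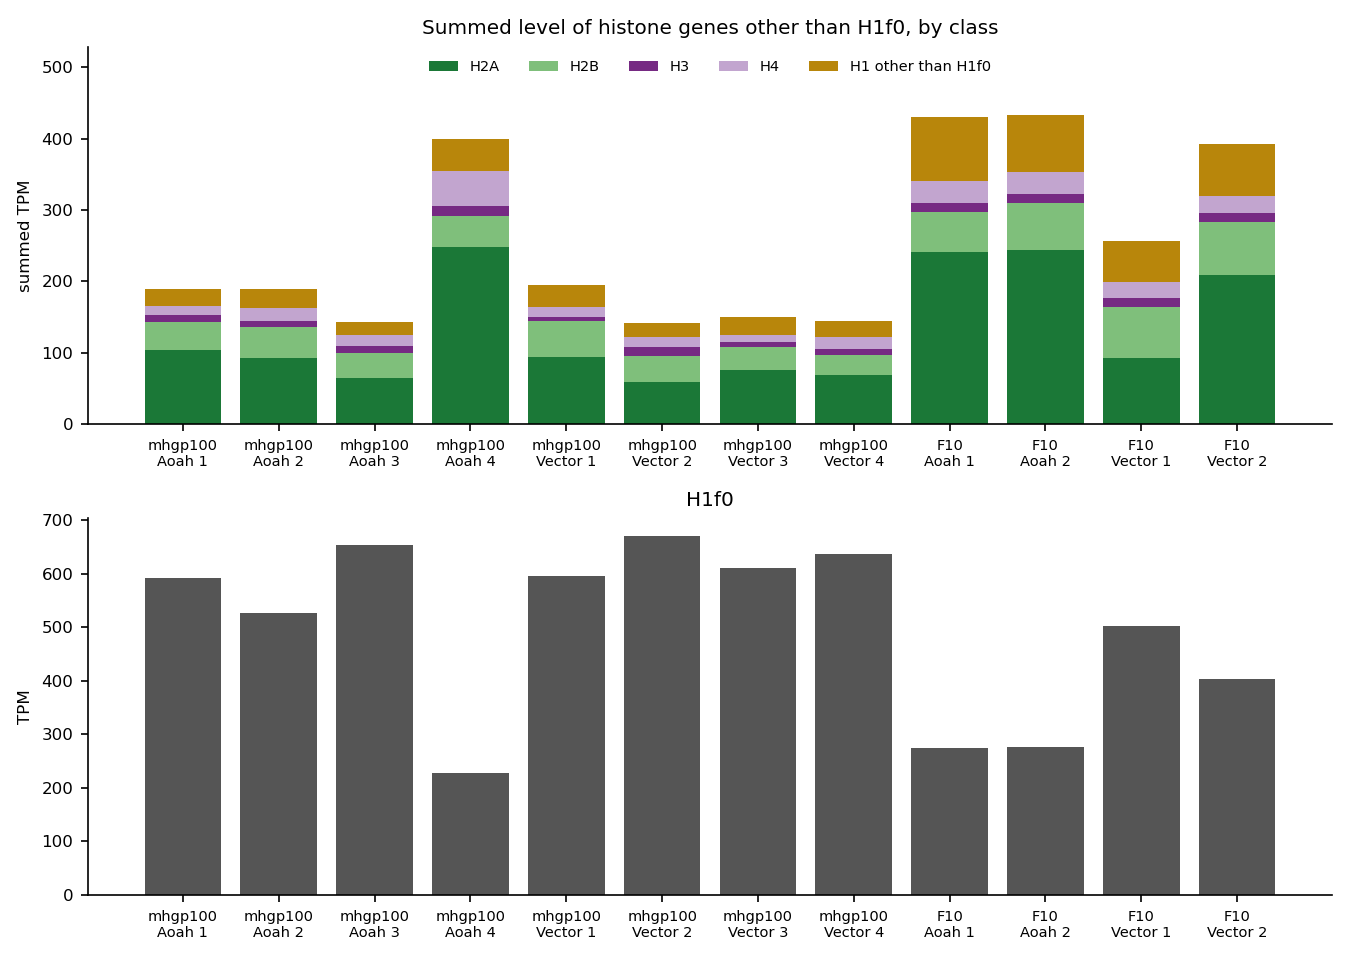
Summed TPM of the histone genes other than H1f0, stacked by class (upper panel), and TPM of H1f0 (lower panel), 1 bar per tumour in the order B16mhgp100 Aoah, B16mhgp100 Vector, B16F10 Aoah, B16F10 Vector. The stacks are tall in B16mhgp100 Aoah 4, both B16F10 Aoah tumours and B16F10 Vector 2, and the same 4 bars are the lowest in the H1f0 panel.

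The 4 libraries with the highest core histone sums (B16mhgp100 Aoah 4, B16F10 Aoah 1 and 2 and B16F10 Vector 2) were also the 4 with the lowest H1f0 levels. They also had the 4 lowest sums of 25 S phase genes, at 1464, 2058, 2242 and 1836 TPM, against 2354 to 3016 TPM in the other 8 libraries. Their sums of 15 G2 and M phase genes were likewise the 4 lowest, at 992.5, 1026, 1072 and 1057 TPM, against 1468 to 1748 TPM. In these 4 libraries core histone sums were thus high and those of the replication and mitosis genes low. The relation did not hold over all libraries. B16F10 Vector 1, with the next core sum of 199 TPM, had the highest S phase and G2 and M phase sums, at 3016 and 1748 TPM. Without H2ac24 and H2ac19 its core sum of 136 TPM stood beside those of these 4 libraries. The same 4 libraries had the most negative relation between gene length and level. Each library's deviation from the median of the other libraries was set against transcript length. The Spearman rho across genes (not independent of each other) was -0.391, -0.228, -0.169 and -0.3 in these 4 and ran from -0.0179 to 0.201 in the others. Short genes, as most core histone genes are, stood higher in them. A list of 10 other RNAs that lack a polyA tail did not follow the same order, with 3284, 1114, 1061 and 502.1 TPM in the 4 libraries and 430.8 to 1368 TPM in the others. The part of length, of the cell cycle genes and of tissue makeup in the histone levels was not tested, and in bulk tumour RNA fewer cells of a type and less RNA per cell cannot be told apart.

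**Figure D3:**
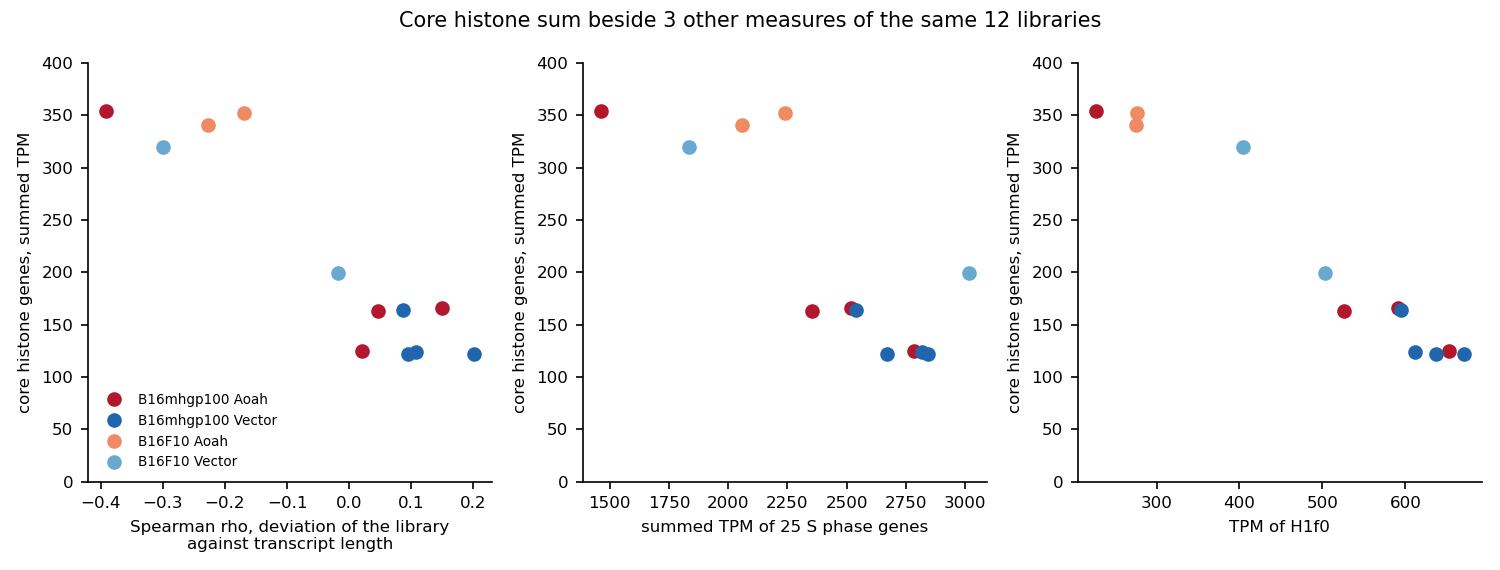
Summed TPM of the core histone genes (vertical axis) against 3 other measures of the same 12 libraries, from left to right the Spearman rho between a library's deviation and transcript length, the summed TPM of 25 S phase genes and the TPM of H1f0, with 1 point per tumour coloured by group. In each panel the 4 libraries with core sums of 320 to 354 TPM are the 4 leftmost points, at rho of -0.169 or lower, S phase sums up to 2242 TPM and H1f0 levels up to 404 TPM.

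Between the models 6 of the 42 histone genes tested were lower in B16mhgp100 than in B16F10 and 0 were higher, averaged over Aoah and Vector tumours in a limma fit of all 12 libraries at an adjusted p below 0.05. In the same fit 7.37% of 16556 genes passed, 3.66% as lower and 3.71% as higher. The 6 were 2 linker genes, H1f10 and H1f2, 1 gene of H2A, H2ac25, and 3 genes of H2B, H2bc8, H2bc21 and H2bc6. No H3 or H4 gene passed. Cells, antibodies and first treatment day differ together between the models, so their parts cannot be told apart. In the same comparison 2 of 13 mitochondrially encoded genes, 1 of 8 melanocyte markers and 1 of 7 T cell markers were lower, and the part of these lists in the result was not tested. The other 26 histone genes did not reach 1 TPM in 2 libraries and were not tested.

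H1f10 had the largest difference, with a log2 difference of -2.07 on the log2(TPM + 1) scale (SE 0.28, limma adjusted p = 0.0016). H1f2 had a log2 difference of -1.31 (SE 0.29, limma adjusted p = 0.0208), in which the models overlapped through B16F10 Vector 1. The estimate for H1f0 had the other sign, a log2 difference of 0.61 (SE 0.25, limma adjusted p = 0.171). H1f0 did not pass in that fit. Its difference was 0.70 without the library labelled B16mhgp100 Aoah 4 and B16F10 Vector 2, the 2 libraries with the most negative length relation. Leaving out these 2 was chosen after the data were seen and leaves 1 B16F10 Vector tumour. H2bc8 had a log2 difference of -1.15 (SE 0.20, limma adjusted p = 0.00606), H2bc21 of -1.11 (SE 0.24, limma adjusted p = 0.0207) and H2bc6 of -0.69 (SE 0.18, limma adjusted p = 0.0404). H2ac25 had a log2 difference of -0.86 (SE 0.20, limma adjusted p = 0.024). In 4 of the 42 histone genes tested, every B16mhgp100 tumour lay below every B16F10 tumour, beside 4.57% of all genes tested. They were H1f10, H2bc8, H2bc21 and H2bc6, all among the 6 called from the same values, so this is a description. Of the B16mhgp100 tumours only Vector 2 reached 1 TPM in H2bc6, at 1.12 TPM. H2bc6 was thus tested only through B16F10, where it is high, and its place in these counts supports no difference. It did not pass at a pseudocount of 0.1 or without a filter on low values. H2ac19 (-1.19, SE 0.35, limma adjusted p = 0.0679), H2ac24 (-1.08, SE 0.45, limma adjusted p = 0.184) and H2bc4 (-0.77, SE 0.22, limma adjusted p = 0.0627) did not pass. Over the 42 histone genes 32 estimates were below 0 and 10 above, with a median of -0.26, beside a median of 0.03 and 53.0% above 0 over all genes tested. The genes tested include those that reached 1 TPM only in the model where they are higher, so these counts describe them without supporting a difference.

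**Figure D4:**
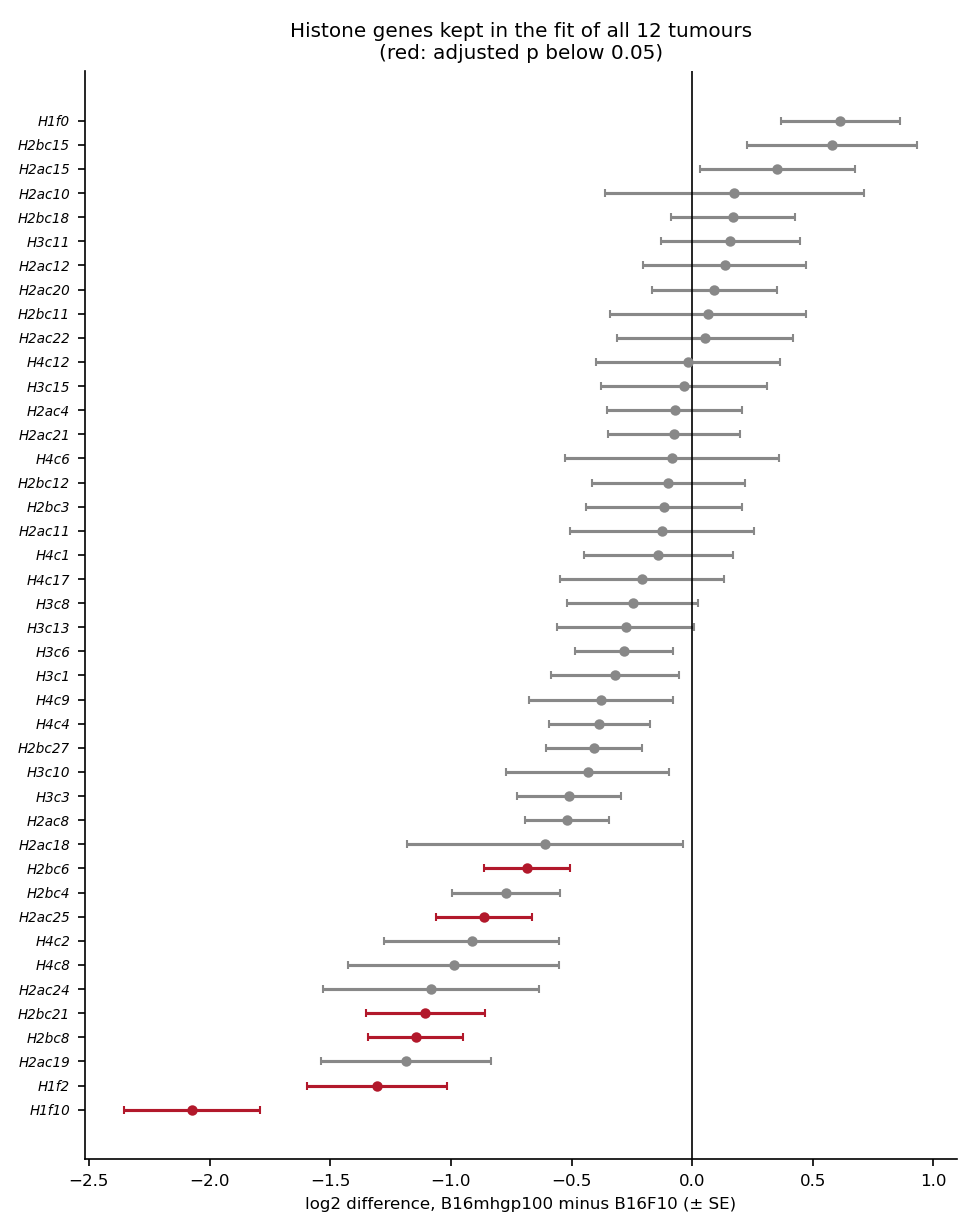
Log2 difference, B16mhgp100 minus B16F10 and averaged over Aoah and Vector tumours (horizontal axis, log2(TPM + 1) scale, with its SE), of the 42 histone genes tested, sorted from highest to lowest, in red where the limma adjusted p is below 0.05. The 6 red points lie between -2.07 and -0.69, and H1f0, at 0.61, is the highest of all.

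The calls depended on single libraries. Without the library labelled B16mhgp100 Aoah 4, 16 of 39 histone genes passed, beside 32.6% of all genes tested, and they included all 6 above, H1f0 and H2ac8, H2ac19, H2ac24, H2bc4, H3c3, H4c2, H4c4, H4c8 and H4c9. Without B16F10 Aoah 1, without B16F10 Aoah 2 or without B16F10 Vector 2, 2 passed each time, H1f10 and H2bc8, beside 2.38%, 2.68% and 2.98% of all genes. After the trend of each library with transcript length was subtracted, 7 of 40 passed, beside 15.1% of all genes. They were H1f10, H1f2, H2bc8, H2bc21, H2bc4 and H2ac19 as lower in B16mhgp100, and H1f0, at 0.65 (limma adjusted p = 0.0392), as higher. In the fit with every library, 7.37% of all genes passed. There the histone genes with at most 100 bases after the stem-loop had 0 of 15 tested genes among the 6. Those with a longer end had 3 of 8 (H1f2, H2bc8 and H2bc6, of which H2bc6 was tested only through B16F10). Those with no stem-loop match had 2 of 17 (H1f10 and H2bc21), and the remaining call, H2ac25, had no matched transcript. These small counts are not read as a difference between kinds of message end. Without the library labelled B16mhgp100 Aoah 4, genes with at most 100 bases after the core passed too, namely H2ac19, H2ac24, H3c3, H4c2 and H4c8.

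In B16mhgp100, Aoah and Vector tumours were compared under anti-PD1, and no histone gene passed. Of 24 tested, 0 passed at an adjusted p below 0.05, as did 0.0% of 14228 genes, and at an unadjusted p below 0.05 2 were higher and 0 lower, beside 2.46% of all genes in both directions. The 2 were H2ac20, named because of its value, and H2ac19. H2ac20 had 3.17, 2.31, 2.35 and 3.19 TPM in Aoah tumours, against 0.37, 1.53, 0.66 and 0 TPM in Vector tumours. It was the 1 histone gene whose groups did not overlap, beside 0.731% of all genes as higher, with a log2 difference of 1.27 (SE 0.29, limma adjusted p = 0.694). Since 1 Vector tumour reached 1 TPM in H2ac20, the gene was tested only through the Aoah group, where it is high, and its place in these counts supports no difference. H2ac19 had a log2 difference of 0.94 (SE 0.38, limma adjusted p = 0.694), with p = 0.0571 when all 70 arrangements of the tumours were enumerated (exact permutation test, 2-sided, smallest possible p 0.0286). Without the library labelled Aoah 4 the H2ac19 difference was 0.62. The H2ac24 difference without that library was 0.16, against 0.63 with it (SE 0.53, limma adjusted p = 0.694), and that of H1f0 was -0.09, against -0.44 with it (SE 0.31, limma adjusted p = 0.694). H1f2 had a log2 difference of 0.07 (SE 0.35, limma adjusted p = 0.921), which was -0.17 without that library. Of the 24 estimates 19 were above 0, with a median of 0.19, beside a median of -0.20 and 30.0% above 0 over all genes. Scaled by median ratios, which moved the median of all genes to 0.00, the histone median was 0.36. On the TPM scale without the library labelled Aoah 4, the histone median was 0.09 and that of all genes was -0.03. Of the 24 genes 5 were tested through the Aoah group alone, so the counts and medians are a description.

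In B16F10, Aoah and Vector tumours were compared under anti-PD1 and anti-CTLA4, with 2 tumours each. None of 31 histone genes tested passed in limma, beside 0.344% of 14533 genes. At an unadjusted p below 0.05, 7 were higher and 1 lower, beside 10.9% of all genes as higher and 7.28% as lower. Of the 7, H2bc3, H2ac11, H3c15 and H4c17 reached 1 TPM in no Vector tumour and were tested only through the Aoah group, where they are high, as were 3 genes outside the 7, so these counts support no difference. H1f0, the 1 that was lower, had a log2 difference of -0.71 (SE 0.17, limma adjusted p = 0.135). In the authors' deposited table the same gene had a log2 fold change of -0.72 (SE 0.19) with an adjusted p of 0.00457, the 1 histone gene that passed there, beside 8.53% of 14328 genes. The 7 that were higher were H2ac18, H2bc3, H4c8, H3c15, H4c17, H2ac11 and H2ac19. H2ac18 had the largest log2 difference, 1.58 (SE 0.30, limma adjusted p = 0.105), and H4c8 had 1.06 (SE 0.27, limma adjusted p = 0.147). H2ac19 had 1.35 (SE 0.49, limma adjusted p = 0.239), H2ac24 0.71 (SE 0.45, limma adjusted p = 0.466) and H1f2 0.46 (SE 0.32, limma adjusted p = 0.493). Without B16F10 Vector 1 these 3 differences were 0.61 in H2ac19, 0.00 in H2ac24 and 0.03 in H1f2, and without Vector 2 they were 2.10, 1.41 and 0.89. The values of H2bc3 were 1.68 and 1.71 TPM in Aoah tumours, against 0.33 and 0.35 TPM in Vector tumours, with a log2 difference of 1.01 (SE 0.23, limma adjusted p = 0.135). The other 3, H3c15, H4c17 and H2ac11, had log2 differences of 0.96, 0.98 and 0.93, from levels of at most 2.00 TPM. Groups did not overlap in 13 histone genes as higher and 3 as lower (H1f0, H2bc6 and H2bc21), beside 28.0% and 22.6% of all genes, shares that 2 against 2 libraries make common.

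The Vector tumours of B16F10 differed from each other. H2ac24 had 48.2 TPM in Vector 1 and 130 TPM in Vector 2, and mitochondrially encoded genes summed to 48750 TPM in Vector 1 and 101800 TPM in Vector 2, against 62420 and 58200 TPM in Aoah tumours. Of 7 T cell markers tested in the same comparison, Cd8a and Cd8b1 were higher in Aoah tumours, and the sum of the list was 77.1 and 89.0 TPM in Aoah tumours, against 14.0 and 5.73 TPM in Vector tumours. Of 4 keratinocyte markers tested 1 was higher, Krt10, at a log2 difference of 3.11 (SE 0.30, limma adjusted p = 0.0384), and 7 of 8 macrophage markers had estimates above 0, of which none passed. The keratinocyte list summed to 25.98 and 35.21 TPM in Aoah tumours, against 4.73 and 40.08 TPM in Vector tumours, and the macrophage list to 971.7 and 857.9 TPM in Aoah tumours, against 514.7 and 482.9 TPM in Vector tumours. The sum of the RNAs that lack a polyA tail was 1114 and 1061 TPM in Aoah tumours, against 1368 and 502.1 TPM in Vector tumours. The 8 melanocyte markers summed to 30410 and 29420 TPM in Aoah tumours, against 19050 and 22420 TPM in Vector tumours. The part of these lists in the histone values was not tested. A fit without Vector 1 or without Vector 2 leaves 1 Vector tumour, assumed to vary like the Aoah tumours, so only differences are given. Without Vector 1 the log2 difference was -0.55 in H1f0 and 0.88 in H4c8. Without Vector 2 the values were -0.87 and 1.23. In H2ac18 the difference was 1.58 in both fits, since both Vector tumours had 1.55 TPM. The 2 fits share the same Aoah tumours and do not support each other.

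The difference between the models in the response to Aoah was tested in the fit of all 12 libraries. No histone gene of 42 tested passed, beside 0.0302% of 16556 genes, and 1 had an unadjusted p below 0.05, beside 5.65% of all genes. It was H4c12, named because of its value, which was listed at 0 in 8 of the 12 libraries. For H1f0 the Aoah effect in B16mhgp100 minus that in B16F10 was 0.27 (SE 0.49, limma adjusted p = 0.898) on the log2 scale, for H2ac19 -0.42 (SE 0.70, limma adjusted p = 0.89), for H1f2 -0.39 (SE 0.58, limma adjusted p = 0.875) and for H2ac24 -0.07 (SE 0.90, limma adjusted p = 0.988). Without the library labelled B16mhgp100 Aoah 4 the value for H1f0 was 0.61 (limma adjusted p = 0.177), and with any 1 library left out it ran from 0.11 to 0.61. Without that library and B16F10 Vector 2 together it was 0.77 (limma adjusted p = 0.0445), the 1 histone gene of 36 that then passed, beside 2.25% of all genes.

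**Figure D5:**
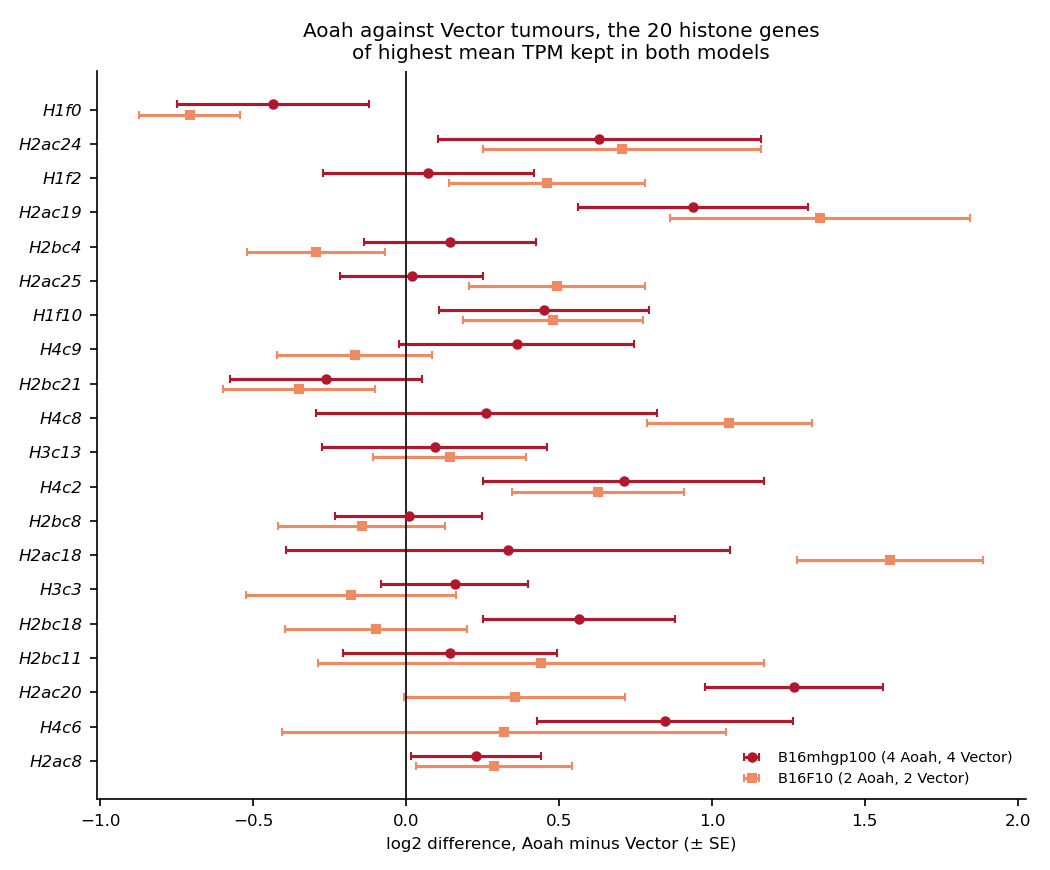
Log2 difference, Aoah minus Vector (horizontal axis, log2(TPM + 1) scale, with its SE), of the 20 histone genes with the highest mean TPM that were tested in both models, with circles for B16mhgp100 and squares for B16F10. None passed at a limma adjusted p below 0.05, and H1f0 lies at -0.44 in B16mhgp100 and -0.71 in B16F10.

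The read counts behind these levels were small for most histone genes. In the authors' deposited tables, which hold 60 of the 68 for each model, the median of their mean normalised counts was 3.05 in B16mhgp100 and 2.92 in B16F10. A mean of at least 10 counts was reached by 13 in B16mhgp100 and 21 in B16F10, and of at least 100 by 5 and 7. H1f0 had 10120 counts in B16mhgp100 and 6807 in B16F10, H1f2 had 298.8 and 716.6, H2bc4 226.6 and 380.4, and H2ac24 187.6 and 315.2. An adjusted p was given for 45 of them in B16mhgp100 and 15 in B16F10. No histone gene passed in the authors' deposited table for B16mhgp100, beside 0.0146% of 20534 genes, and 3 of 60 had an unadjusted p below 0.05 there, beside 4.15% of all genes.

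Genes that act on histones were read from lists set up beside the histone genes. Between the models 3.71% of all genes tested were higher in B16mhgp100 and 3.66% lower. The counts of 1 of 18 and 1 of 25 below are near that share and are not read as a result. Of 17 histone chaperones, which carry histones to and from DNA, 4 were higher in B16mhgp100 than in B16F10 and 0 lower, with log2 differences from 0.53 to 0.84. The highest was that of Ssrp1, a subunit of the FACT complex, at 0.84 (SE 0.14, limma adjusted p = 0.00572), and among them was Nasp, which binds free H3 and H4, at 0.82 (SE 0.18, limma adjusted p = 0.0203). Of 18 genes of the histone locus body and of histone mRNA processing 1 was higher, Casp8ap2 (FLASH), a factor of the histone locus body, at 1.08 (SE 0.26, limma adjusted p = 0.0294). Slbp itself did not pass (0.28, SE 0.16, limma adjusted p = 0.352). Of 25 S phase genes 1 was higher, Prim1, a subunit of DNA primase, and of 15 G2 and M phase genes 3 were higher, Cenpe, Cenpf and Mki67. Among 8 tested replacement histone genes, H2ax, which encodes the H2A variant phosphorylated at DNA breaks, was lower (-0.84, SE 0.13, limma adjusted p = 0.00298), and Cenpa, the H3 variant of centromeres, was higher (0.69, SE 0.14, limma adjusted p = 0.0132). Whether the differences in these lists hold without the library labelled B16mhgp100 Aoah 4, or after the correction for transcript length, was not tested. In the Aoah comparisons and in their difference between the models, 0 genes of these 5 lists passed in limma, and at an unadjusted p below 0.05 there were 3 of 82 in B16mhgp100, 15 of 82 in B16F10 and 6 of 83 in the difference, beside 2.46%, 18.2% and 5.65% of all genes.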

How the data were processed

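PolyA-selected libraries of 12 tumours were compared. The authors deposited log2 expression per gene symbol, and 2 to that value minus 1 gave TPM, which summed to 992185 to 996590 per library. Per the submitters' processing notes, RSEM, DESeq2 and build mm39 were used. RSEM shares reads between near-identical genes, and no strand setting is stated, so overlapping antisense genes cannot be separated. For each model they also deposited a table with a mean signal per gene (the mean normalised count), log2 fold changes, a test score, p-values and adjusted p-values. A further table of immune receptor measures was not used here.

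limma 3.58.1 (R 4.3.3) was fitted to log2(TPM + 1) (variance trend, 2-sided), for genes with at least 1 TPM in as many libraries as the smallest group, with Benjamini-Hochberg adjustment over all of them and a threshold of 0.05. The log2(TPM + 1) scale understates changes of low genes. The procedure was tested on simulated data with known changes. Single values in B16mhgp100 were also given an exact permutation test. For 15868 of 16556 genes a transcript length was found. Values per library are given for the 4 genes of each histone class with the highest mean TPM and for those past the threshold, and log2 differences for the 4 with the highest mean overall and those at an unadjusted p below 0.05. The histone genes, gene lists and these rules were chosen with earlier results of these data known. Sequences came from GENCODE M21 transcripts and RefSeq promoters on GRCm38.p6, matched by gene ID and symbol, not by coordinate. No protein table was used. Alternatives tried were another pseudocount, other filters on low values, median-of-ratios scaling, library weights, a replicate block, leaving out each library, and, added after the data were seen, a correction for transcript length, a crossed block and leaving out 2 libraries together.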

Additional observations from a re-analysis of the deposited data

Results flagged for a closer look

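In groups of 4 tumours the highest or lowest value was compared with its nearest neighbour, over 52 groups of values, and 6 had a gap that was large for the range of the group. Chance gives about 1 such gap in 20 groups. The groups are not independent, since the class sums hold the single genes, so the count cannot be judged against that share. Of the 6, 4 were highest values in the library labelled B16mhgp100 Aoah 4, namely H2ac18 at 11.21 TPM (next 2.01), H4c8 at 9.51 TPM (next 2.29), H4c6 at 3.36 TPM (next 1.65) and the sum of the H4 genes at 48.87 TPM (next 19.03). In the B16mhgp100 Vector tumours, H2bc4 was highest in Vector 1 at 32.44 TPM (next 19.38), and H3c15 was lowest in Vector 3, listed at 0 TPM (next 1.0).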

How the results depend on the processing

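No label states that each tumour had its own mouse, and the p-values cover only the spread of these libraries. With no called histone gene in B16mhgp100, none was called under any alternative run there. In B16F10 the median log2 difference of the histone genes tested was 0.47 at a pseudocount of 0.1, -0.015 without a filter and 0.48 at a filter of 5 TPM, and 0.14 to 0.31 with 1 library left out, where 0 to 7 genes were called. Whether the replicate numbers pair the samples could not be told. In B16mhgp100 r of same-numbered deviations was -0.265 to 0.071, and that of differently numbered ones -0.383 to 0.393. In B16F10 it was -0.108, and with 2 tumours per group only its sign can differ between pairings. With the numbers as a replicate block 2 histone genes were called in B16F10 (beside 5.26% of all genes) and 0 in B16mhgp100. For the difference in the Aoah effect 0 were called, and between the models 1 (1.69%). The pairing crossed in B16F10, chosen after seeing the data, called 3 (6.26%). Between the models 13 were called with array weights (28.1%) and 4 to 16 with 1 B16mhgp100 library left out (4.63% to 32.6%). The median was -0.58 at a pseudocount of 0.1 and -0.99 at a filter of 5 TPM. Without B16mhgp100 Aoah 4 and B16F10 Vector 2 together, which leaves 1 B16F10 Vector tumour, it was -0.47. Median-of-ratios scaling gave mean sums of 598.2 TPM for H1 in B16mhgp100 Vector, 245.3 for H2A in B16F10 Aoah and 45.36 for H2B in B16mhgp100 Aoah tumours. Signs turned in H1f2 of B16mhgp100 (-0.16 with array weights, -0.17 to 0.36 with 1 library left out) and, for the difference in the Aoah effect, in H2ac24 (0.17 with median-of-ratios scaling, -0.78 to 0.63 with 1 left out), H2ac19 (-1.16 to 0.33) and H1f2 (-0.82 to 0.038). The cause was not tested.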
